A study of Mus musculus with 12 samples.

Results

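The wild-type HSC gene-body MOF peaks are sites where the acetyltransferase MOF was called on chromatin of haematopoietic stem cells (HSC) inside a protein-coding gene and more than 1 kb from the start or end of any protein-coding gene. They were chosen by position alone, from the authors' list of peak summits and the RefSeq gene spans of the same genome build, mm10. The rule found 377 such summits among the 1850 on chromosomes 1 to 19 and X (20.4%, 95% Wilson interval 18.6 to 22.3), out of 1876 in the list. The 377 summits lay in 353 different genes. Of the other summits, 1145 lay within 1 kb of a gene start or end and 328 lay outside coding genes.

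The peaks came from chromatin immunoprecipitation followed by sequencing (ChIP-seq) with an antibody to MOF on 15000 sorted HSC from bone marrow of wild-type C57BL/6 mice. The HSC gate took LSK cells (no lineage markers, with Sca-1 and Kit on the surface) that lacked CD34 and Flt3, and the bones used were pooled. They were set beside 4 other lists of the study. These were MOF in HSC of Mof-/+ mice (C57BL/6, 15000 cells, 338 peaks), MOF in 30000 megakaryocyte-erythroid progenitors (MEP) of wild-type C57BL/6 mice (898 peaks), MOF in 30000 MEP of Mof-/+ C57BL/6 mice (64 peaks), and GATA1 in HPC7 (477 intervals), a wild-type mouse haematopoietic progenitor line grown with stem cell factor and used at passage 3. Each list came from 1 library, so no value here has a replicate check, and every test compares lists of peaks or classes of peaks and not animals. Read numbers were not given in the sources used here, which leaves depth unknown, and depth and caller settings can change how long a list is. Nothing in the labels says how the Mof-/+ allele was made or how many animals gave the cells.

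MOF, encoded by Kat8, adds an acetyl group to lysine 16 of histone H4, a modification that loosens the packing of nucleosomes. It works in the MSL complex and in the NSL complex, and the NSL complex is known for binding promoters of widely expressed genes. In the fruit fly the MSL complex spreads over the bodies of X-linked genes in males. A position inside a gene can be an internal promoter, an enhancer, a small RNA gene carried in an intron, or none of these.

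About 3 in 10 gene-body peaks sat on a transcription start that RefSeq places inside the gene. The sequences below are the start windows under 6 of these summits, shown because they are the sites where the internal starts and the peaks meet. The first 4 are the highest-valued summits inside a window of their own host gene with no overlap in another list, and the last 2 are the highest that another list shared. Each run is a RefSeq window of GRCm38.p6 with 250 bases before and 50 bases after the start, read 5′ to 3′ on the strand of the gene, and the 21 capitals are centred on the MOF summit.
Add3: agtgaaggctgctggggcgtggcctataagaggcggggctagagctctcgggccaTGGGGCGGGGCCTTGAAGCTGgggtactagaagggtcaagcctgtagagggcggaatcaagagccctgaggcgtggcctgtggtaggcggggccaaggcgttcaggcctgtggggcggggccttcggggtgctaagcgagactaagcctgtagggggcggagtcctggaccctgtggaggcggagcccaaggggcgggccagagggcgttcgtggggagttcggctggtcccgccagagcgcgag
Stag1: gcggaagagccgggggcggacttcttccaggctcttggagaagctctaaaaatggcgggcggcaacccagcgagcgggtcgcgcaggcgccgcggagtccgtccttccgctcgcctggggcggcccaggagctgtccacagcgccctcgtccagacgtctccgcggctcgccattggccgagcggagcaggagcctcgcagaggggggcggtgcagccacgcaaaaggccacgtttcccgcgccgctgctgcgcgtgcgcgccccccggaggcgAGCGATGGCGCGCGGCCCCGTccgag
Srgn: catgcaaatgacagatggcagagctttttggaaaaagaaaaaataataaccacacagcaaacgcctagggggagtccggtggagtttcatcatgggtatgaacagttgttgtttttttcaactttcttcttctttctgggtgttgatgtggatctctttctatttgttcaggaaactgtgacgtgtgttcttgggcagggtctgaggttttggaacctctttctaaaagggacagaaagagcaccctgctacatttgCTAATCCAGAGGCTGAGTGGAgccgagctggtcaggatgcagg
Map4: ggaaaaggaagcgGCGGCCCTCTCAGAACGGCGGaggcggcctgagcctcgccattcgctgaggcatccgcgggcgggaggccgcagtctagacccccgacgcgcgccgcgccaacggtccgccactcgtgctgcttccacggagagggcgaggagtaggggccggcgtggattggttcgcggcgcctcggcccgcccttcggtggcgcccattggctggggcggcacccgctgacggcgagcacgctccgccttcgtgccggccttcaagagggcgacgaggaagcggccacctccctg
H2bc6: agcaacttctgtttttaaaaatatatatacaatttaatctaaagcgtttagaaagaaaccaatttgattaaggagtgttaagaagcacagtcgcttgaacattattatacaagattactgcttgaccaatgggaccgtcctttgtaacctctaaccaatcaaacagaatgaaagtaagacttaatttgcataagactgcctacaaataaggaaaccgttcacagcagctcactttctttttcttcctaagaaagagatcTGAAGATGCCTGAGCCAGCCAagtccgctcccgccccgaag
Inpp5k: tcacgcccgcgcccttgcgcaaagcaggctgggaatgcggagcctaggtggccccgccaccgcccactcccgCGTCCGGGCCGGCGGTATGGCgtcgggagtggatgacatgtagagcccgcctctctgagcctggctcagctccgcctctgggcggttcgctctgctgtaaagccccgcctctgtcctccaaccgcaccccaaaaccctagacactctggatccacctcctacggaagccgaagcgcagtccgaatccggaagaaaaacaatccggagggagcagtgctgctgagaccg

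In Add3, which encodes a membrane-skeleton adducin, the window was chr19:53142506-53142805 on the plus strand and the summit lay 185 bp upstream of the start. The Stag1 window, at a gene for a cohesin subunit, was chr9:100643198-100643497 on the plus strand, with the summit 34 bp downstream. In Srgn, which encodes the granule proteoglycan serglycin of blood cells, the window was chr10:62507708-62508007 on the minus strand, with the summit 17 bp downstream. The Map4 window, at a gene for a microtubule-associated protein, was chr9:109931524-109931823 on the plus strand, with the summit 227 bp upstream. The histone gene window of H2bc6 was chr13:23585921-23586220 on the minus strand, with the summit 19 bp downstream. The window of Inpp5k, which encodes an inositol phosphatase, was chr11:75630770-75631069 on the plus strand, with the summit 168 bp upstream. The Stag1 and Map4 windows held 43 and 42 CG pairs at a GC content of 73.7% and 73.3%, and the Add3 and Inpp5k windows held 20 and 27 at 68.3% and 65.7%. The Srgn and H2bc6 windows stood apart, with 4 and 7 CG pairs at 45% and 38% GC.

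Listed starts are the 32619 starts of coding and long non-coding genes for which a RefSeq window was given. They are not all starts, none on chromosome 18 was used, and 309 of the 377 peaks lay in a host with at least 1 listed start. Of the 365 gene-body peaks on chromosomes with listed starts, 106 had a summit within 250 bp of one (29.0%, 24.6 to 33.9). Such positions made up 0.324% of the gene-body sequence on these chromosomes. Peaks within 250 bp of a listed start numbered 34.3 per Mb of gene-body sequence, and those farther away 0.272 per Mb. The start was that of the host gene itself in 98 of the 106 (92.5%), that of a long non-coding RNA gene in 8, and that of another coding gene in 0. For 51 of these 98 peaks it was the only listed start of the host. The summits at a host's own start lay between 1030 and 89023 bp inside the outer 5′ end of the span, with a median of 3836 bp. Internal start here means only a listed start inside the outer RefSeq span of a coding gene. It may be the main promoter of that gene. For H2bc6, a histone gene with a span of 37455 bp, the summit lay 35173 bp inside the outer 5′ end.

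The summits at internal starts tended to lie just downstream of the start. The median position was 25.5 bp downstream, with quartiles at −63.75 and 77.25 bp, and 66 of 106 (62.3%, 52.8 to 70.9) were downstream. Gene-end peaks at a listed start had their median 21 bp upstream, and 359 of 828 (43.4%, 40.02 to 46.8) were downstream. The intervals of the shares did not overlap, and the difference was not tested. For a start about 1 kb inside a gene, the rule puts summits farther upstream in the gene-end class. The part of the rule in this difference was not tested.

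**Figure D1:**
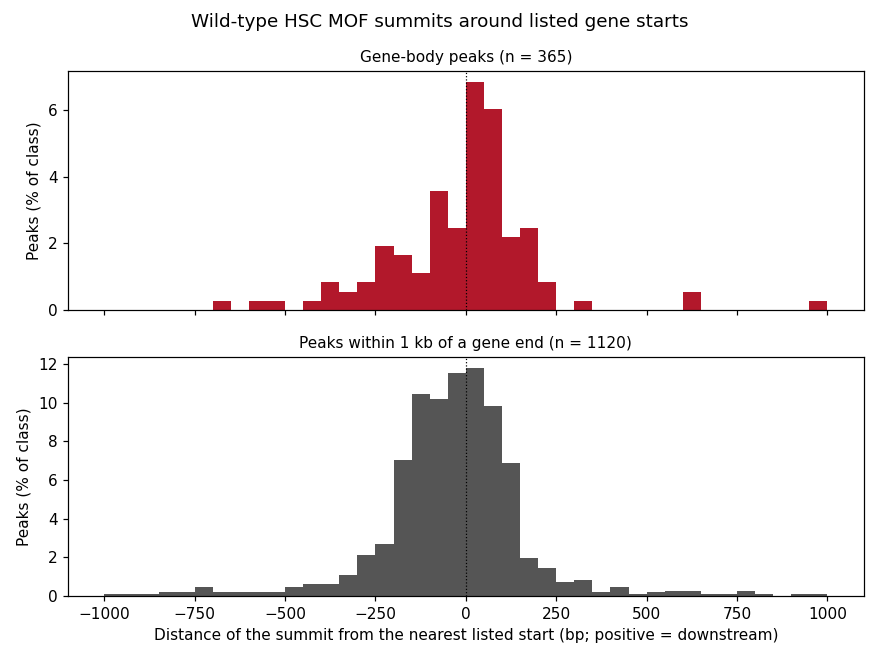
Distance of each wild-type HSC MOF summit from the nearest listed gene start (x axis, bp, positive is downstream), as a percentage of the peaks of its class per 50 bp bin (y axis), for gene-body peaks (upper panel, 365 peaks) and peaks within 1 kb of a gene end (lower panel, 1120 peaks). Gene-body peaks are densest in the 100 bp downstream of the start, which hold 47 of the 106 within 250 bp, and gene-end peaks spread to both sides.

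The highest-valued gene-body peak outside all other lists was the one in Add3 (position 53142571, −log10 value 14.97). The per-peak value is the authors' and was read as a −log10 q-value. The next at an internal start were in Rsad1 (chromosome 11, 94549145, 14.6), 62 bp downstream, in Stag1 (chromosome 9, 100643482, 13.4) and in Srgn (chromosome 10, 62507740, 12.98). Map4 (109931547) and Por, the reductase that passes electrons to cytochrome P450 enzymes (chromosome 5, 135689031), had 12.3 each. The Por summit lay 20 bp downstream of the start of the non-coding gene Gm40345 and 114 bp upstream of the listed Por start. Tsg101, a component of the ESCRT sorting machinery (chromosome 7, 46919965), had 11.98 at 4 bp downstream. Hook2 (chromosome 8, 84990480, 11.8) and the splicing factor gene Srrm2 (chromosome 17, 23803213, 11.2) had summits 143 and 12 bp upstream.

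Gene-body peaks of the other lists were at internal starts less often. Within 250 bp of a listed start were 106 of 365 in wild-type HSC, against 30 of 190 in wild-type MEP (15.8%, 11.3 to 21.6), 2 of 64 in Mof-/+ HSC (3.13%, 0.861 to 10.7), 0 of 22 in Mof-/+ MEP (0%, up to 14.9) and 2 of 185 for GATA1 in HPC7 (1.08%, 0.297 to 3.86). The difference from wild-type MEP had an odds ratio of 2.18 (1.37 to 3.55, Fisher's exact test, adjusted p = 0.0011). Against Mof-/+ HSC the odds ratio was 12.6 (3.25 to 109, exact test, adjusted p = 3.6e-06), and against GATA1 it was 37.3 (9.85 to 316, adjusted p = 3.3e-18). In Mof-/+ MEP, where no such peak was called, the lower 95% limit of the odds ratio was 2.19 (exact test, adjusted p = 0.0014). These tests were added after the data were seen, and p-values were adjusted over 6. Each list came from 1 library, so the p-values cover the counting of peaks only. They do not test a difference between genotypes, cell types or targets. Some sites are in several lists, so the lists are not fully independent, and the part that depth and list length have in these shares was not tested. Distances were taken from the summit in the wild-type lists and from the interval midpoint in the Mof-/+ and GATA1 lists. The part of this difference in the shares was not tested.

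**Figure D2:**
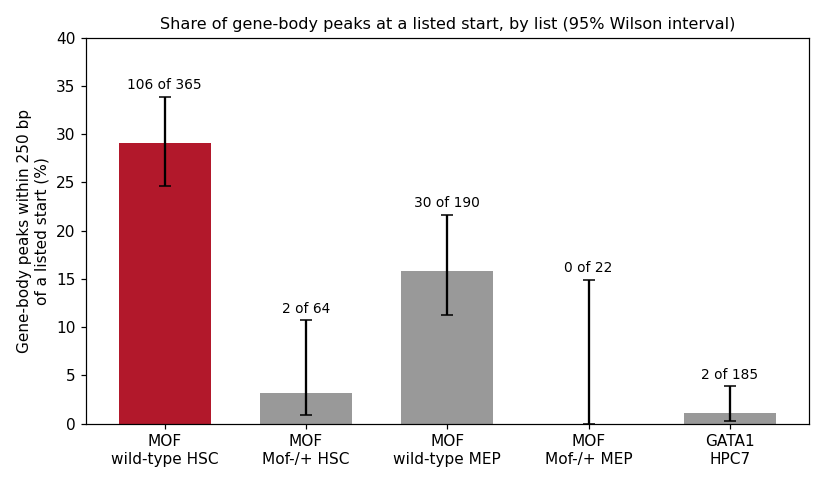
Percentage of gene-body peaks within 250 bp of a listed start (y axis) in each of the 5 lists (x axis), with 95% Wilson intervals and counts above the bars. Positions are summits in the wild-type lists and interval midpoints in the Mof-/+ and GATA1 lists. Wild-type HSC is highest at 29.0%, wild-type MEP stands at 15.8%, and the Mof-/+ and GATA1 lists are at or below 3.13%.

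The start windows under gene-body peaks had a base composition close to that of windows under gene-end peaks. The summits of 64 gene-body peaks fell inside the window of their nearest listed start, each in a different one. Windows of other starts were not searched for these 64. The median GC content of these 64 windows was 64.8% (quartiles 56.7 and 68.7), against 64.7% in the 601 windows under gene-end peaks and 52% in the 6587 windows in gene bodies that held no wild-type HSC summit. The median number of CG pairs per window was 26.5, against 27 and 6. The window of a listed start inside a gene body held a wild-type HSC summit in 84 of 6671 cases (1.26%), against 789 of 18665 at gene ends (4.23%). This count is of windows with any wild-type HSC summit and differs from the 64 for that reason.

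Motifs were searched in the 300 bases on both strands and are given as a description. The GC box GGGCGG was in 40 of the 64 windows under gene-body peaks (62.5%, 50.3 to 73.3), in 76.9% of windows under gene-end peaks and in 35.9% of all 32619 windows. The ETS motif CCGGAAGT was in 10 of 64 (15.6%, 8.71 to 26.4), in 13.6% and in 3.91%. The GATA motif, written as AGATAA with T also taken first and G also taken last, was in 11 of 64 (17.2%, 9.88 to 28.2), in 10.3% and in 29.6%. The RUNX motif TGTGGT was in 7 of 64 (10.9%), in 10.48% and in 16.6%, and the E-box CANNTG was in 33 of 64 (51.6%), in 58.6% and in 72.3%. CCAAT was in 19 of 64 (29.7%), in 37.8% and in 37.6%, and TATAAA was in 2 of 64 (3.13%), in 5.99% and in 13.7%. No motif contains another, although matches can overlap.

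The other 259 gene-body peaks with listed starts on their chromosome had no listed start within 250 bp and are called away from a start. Their median distance to the nearest end of a coding gene was 13609 bp, against 3336.5 bp for the 106 at a start. Some of their hosts had no listed start, so a start near the summit could have been missed. Where the host had a listed start (206 peaks), 158 were over 5 kb from it. A further 15 lay more than 1 and up to 2 kb downstream of the host's start, among them Mecom (chromosome 3, 30508453, value 5.94), a stem cell transcription factor gene, at 1306 bp, and Jund (chromosome 8, 70698946, 13.6), which encodes an AP-1 factor, at 1207 bp. Over 4 equal parts of the host from its 5′ end, the 206 peaks were spread as 59, 53, 46 and 48. All 309 peaks with a listed host start, those at a start included, were spread as 119, 84, 55 and 51.

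Among these peaks away from a start, the highest that no other list shared lay in Ptpn12, a tyrosine phosphatase gene (chromosome 5, 21030397, value 14.7), Slc16a13, a monocarboxylate transporter family gene (chromosome 11, 70221011, 14.2), and Acbd4 (chromosome 11, 103102849, 14.1). No start of these 3 hosts, or of Csgalnact1, was listed, so their distance to a start is not known here. Others were in Vgll4, a gene for a TEAD cofactor (chromosome 6, 114875298, 11.98), 93905 bp inside the gene from its listed start, and in Csgalnact1 (chromosome 8, 68606853, 11.8). Maml3, a gene for a Notch coactivator, held one at position 52000231 on chromosome 3 (11.8), and Septin9 held one at 117358493 on chromosome 11 (11.2).

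The per-peak values of gene-body peaks were much like those of the other classes. Their median was 5.33 (quartiles 3.93 and 7.55, range 1.37 to 57.1), against 5.25 for gene-end peaks (3.74 and 7.44) and 5.28 for peaks outside coding genes (3.69 and 7.29). Those at a listed start had a median of 4.96 and a highest value of 14.97, against 5.29 and 57.1 for those away from a start. The lowest gene-body value was in Diaph1 (chromosome 18, 37926107), and the median one in Asah1 (chromosome 8, 41374754). The 326 peaks in no other list had a median of 5.07 and reached 14.97, and the 43 in 1 or 2 other lists had a median of 6.85.

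**Figure D3:**
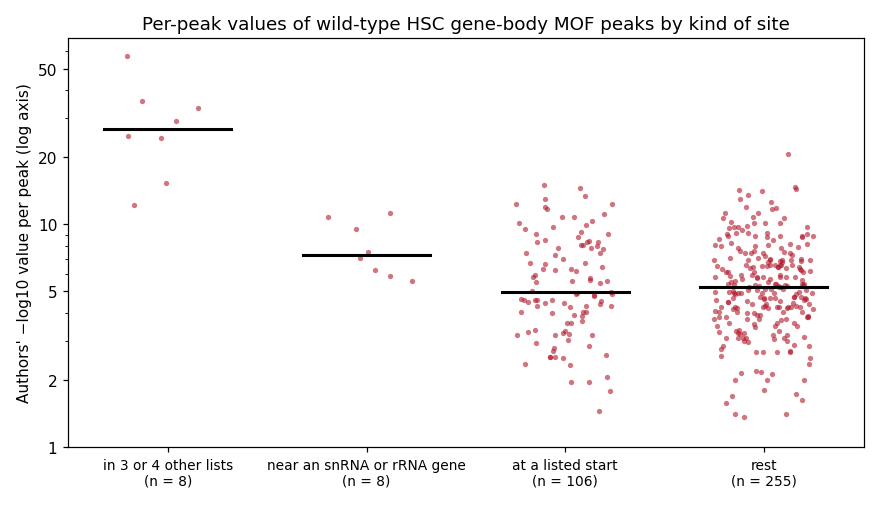
Authors' −log10 value of each wild-type HSC gene-body peak (y axis, log scale), in 4 kinds of site (x axis), with the median as a black bar. The 8 peaks found in 3 or 4 other lists have a median of 26.9, and the 106 at a listed start and the 255 remaining peaks have medians of 4.96 and 5.24.

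Of the 377 gene-body peaks, 51 overlapped a peak of at least 1 other list (13.5%, 10.4 to 17.4), where 15.6% of all wild-type HSC summits did. The lists were reached unequally, and they also differ in length. Wild-type MEP has 898 peaks, Mof-/+ HSC 338, Mof-/+ MEP 64 and GATA1 477. Wild-type MEP shared 46 (12.2%, 9.27 to 15.9; 14.1% of all summits), Mof-/+ HSC shared 14 (3.71%, 2.22 to 6.14; 4.05%), Mof-/+ MEP shared 8 (2.12%, 1.08 to 4.13; 0.865%) and GATA1 shared 8 (2.12%; 1.84%). In exactly 1 other list were 39 peaks, in 2 lists 4, in 3 lists 3 and in all 4 lists 5. Exactly 3 other lists held 0.796% of gene-body peaks, 4.88% of peaks outside coding genes and 0.0873% of gene-end peaks. For all 4 lists the shares were 1.33%, 1.22% and 0.175%, so such sites are not particular to gene bodies. The 8 highest-valued gene-body peaks were all in at least 1 other list. The seventh of them, in Cntnap5b (chromosome 1, 100180226), had 20.8 in wild-type HSC, 9.89 in wild-type MEP and 8.18 in Mof-/+ MEP (9.31-fold) and was in neither the Mof-/+ HSC nor the GATA1 list.

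The 5 peaks in every list lay in Zc3h7a, Cdk8, Filip1l with the overlapping gene Cmss1, Peak1 and Jarid2. The summit in Zc3h7a (chromosome 16, 11144112), a zinc-finger protein gene, had the value 57.1 in wild-type HSC, 69.1 in Mof-/+ HSC (5.71-fold enrichment), 16.9 in wild-type MEP and 13.9 in Mof-/+ MEP (3.54-fold), with a GATA1 interval of 344 bp. Cdk8, which encodes a kinase of the Mediator complex (chromosome 5, 146261177), had 35.7, 55.8 (5.02-fold), 34.2 and 21.6 (4.49-fold), with a GATA1 interval of 351 bp. The Filip1l summit (chromosome 16, 57391479) had 33.5, 75.1 (5.31-fold), 45.4 and 22.2 (4.23-fold), with a GATA1 interval of 300 bp. All 3 sites were 7518 bp or more from a coding gene end. Values of different lists rest on separate calls and are not set against each other.

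Peak1, a pseudokinase gene (chromosome 9, 56223825), had 29.0 in wild-type HSC, 26.9 in Mof-/+ HSC, 10.8 in wild-type MEP and 9.70 in Mof-/+ MEP, and the summits of the 2 wild-type lists fell on the same base. Jarid2, a gene for a Polycomb cofactor (chromosome 13, 44869773), had 24.8, 18.4, 15.9 and 17.3. Kat8, the gene of MOF itself (chromosome 7, 127915427), was in all lists but Mof-/+ HSC, with 24.5 in wild-type HSC, 58.2 in wild-type MEP and 98.4 in Mof-/+ MEP (11.6-fold). Gphn, a gene for a synaptic scaffold protein (chromosome 12, 78350992), was in all lists but Mof-/+ MEP, with 15.3 in wild-type HSC, 18.2 in Mof-/+ HSC and 20.1 in wild-type MEP. Numa1, a spindle protein gene (chromosome 7, 101946306), was in all lists but Mof-/+ HSC. Its site had 12.3 in wild-type HSC, 82.0 in wild-type MEP and 61.7 in Mof-/+ MEP, with a GATA1 interval of 606 bp.

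All 8 gene-body peaks that overlapped the GATA1 list were these 8 peaks found in 3 or 4 other lists, and none of them was within 250 bp of a listed start. The GATA1 antibody is directed at a protein other than MOF, and HPC7 is a cultured line, so these 8 sites were called across targets, genotypes and cell types. Whether they reflect MOF binding was not tested. Comparisons of overlap are given below with and without them.

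**Figure D4:**
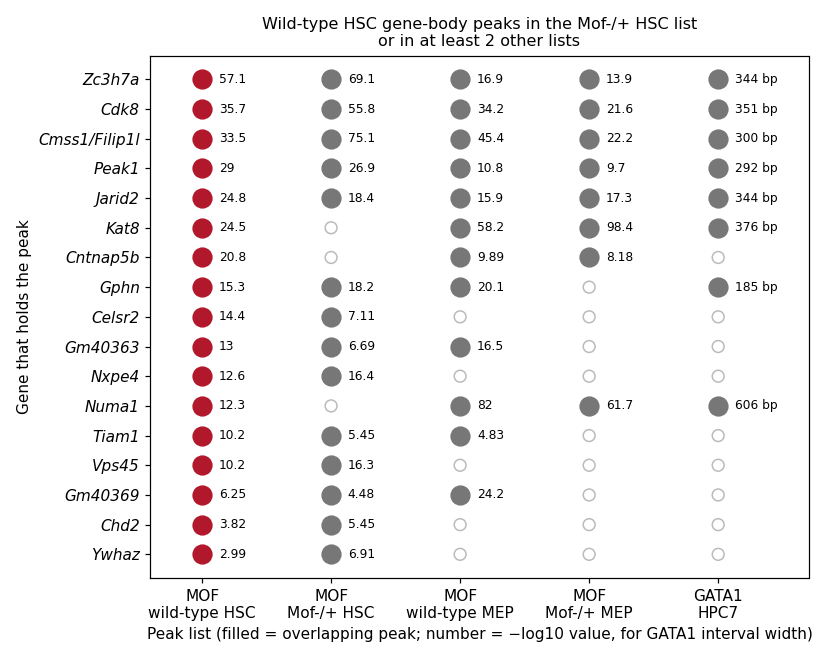
The 17 wild-type HSC gene-body peaks that overlapped the Mof-/+ HSC list or at least 2 other lists (rows, by host gene), across the 5 lists (columns). Filled circles are overlapping peaks with the authors' −log10 value, or for GATA1 the interval width, and open circles mean no overlapping peak. The rows with circles in every column are Zc3h7a, Cdk8, Filip1l with Cmss1, Peak1 and Jarid2.

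Of the gene-body peaks, 8 overlapped Mof-/+ HSC without a GATA1 interval, and 5 of these were in no further list. The 5 were in Celsr2, an adhesion receptor gene (chromosome 3, 108401899; 14.4 in wild-type HSC and 7.11, 6.00-fold, in Mof-/+ HSC), Nxpe4 (chromosome 9, 48217707; 12.6 and 16.4), Vps45, a vesicle fusion gene (chromosome 3, 96044738; 10.2 and 16.3), the chromatin remodeller gene Chd2 (chromosome 7, 73537931; 3.82 and 5.45) and Ywhaz, which encodes a 14-3-3 protein (chromosome 15, 36792507; 2.99 and 6.91). The other 3 were also in wild-type MEP and lay in Tiam1, a Rac activator gene (chromosome 16, 89905245), and in Gm40363 and Gm40369 on chromosome 6. The Tiam1 site had 10.2 in wild-type HSC, 5.45 in Mof-/+ HSC and 4.83 in wild-type MEP. Gm40363 (47685544) had 12.96, 6.69 and 16.5, and Gm40369 (47655209) had 6.25, 4.48 and 24.2. The site in Gm40369 lay 115 bp from Rn4.5s, a small RNA gene that the annotation places in its rRNA class.

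None of the 106 gene-body peaks at a listed start was in the Mof-/+ HSC list (0%, up to 3.50%). Of the 259 away from a listed start, 14 were (5.41%, 3.25 to 8.87). The difference passed the test (Fisher's exact test, adjusted p = 0.016, upper 95% limit of the odds ratio 0.714). The difference was −5.41 percentage points. With the start limit at 100 bp it was −4.73 points and did not pass (exact test, adjusted p = 0.098). Without the peaks in 3 or 4 other lists it was −3.19 points and did not pass (exact test, adjusted p = 0.13). Those peaks are defined by such overlaps and all lay away from a start, so leaving them out shrinks the difference by construction. In the wild-type MEP list the shares were 12.3% (13 of 106) and 12.4% (32 of 259), with an odds ratio of 0.992 (0.456 to 2.05, exact test, adjusted p = 1).

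Wild-type MEP alone shared 34 gene-body peaks. Their median value was 6.28 in HSC and 6.22 in MEP, and 13 of the 34 sat at a listed start and 6 in Tex14. Over all 46 peaks shared with wild-type MEP, the HSC and MEP summits were a median of 49 bp apart, 34 of them within 100 bp, and the largest gap was 262 bp. At internal starts these included the histone genes H2bc6 (chromosome 13, 23585951; 8.51 in HSC and 6.79 in MEP) and H3f3b, which encodes the replacement histone H3.3 (chromosome 11, 116024426; 4.93 and 10.4). Also among them were Inpp5k (8.31 and 4.77), Ppp1r10, a phosphatase-targeting gene (chromosome 17, 35919068; 7.99 and 7.35), Anapc15, a subunit of the anaphase-promoting complex (chromosome 7, 101896381; 7.75 and 5.76), and Sgo1, the cohesin protector shugoshin (chromosome 17, 53689415; 6.98 and 6.11). The splicing factor gene Srsf1 (chromosome 11, 88047529) had 3.68 in HSC and 16.8 in MEP. The remaining starts were those of C87436, Esyt2, Ubxn6, Unk, Dennd6b and Bclaf1.

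Wild-type MEP alone also shared sites that were not called at a listed start. These lay in Jund (13.6 in HSC and 4.86 in MEP) and Snx15 (chromosome 19, 6128078, 9.04 and 9.40). Further sites were in Serinc3 (chromosome 2, 163642796, 8.87 and 5.20) and Epc1, a NuA4 acetyltransferase subunit gene (chromosome 18, 6490015, 7.94 and 6.65). Gtf2a1, a general transcription factor gene, held a site as well (chromosome 12, 91588452, 6.92 and 4.33). The distance to a host start is not known for Snx15, which had none listed, or for Epc1 on chromosome 18. The recombination gene Rad51b (chromosome 12, 79612819; 6.85 and 3.60) held one deep inside the gene. Among the others were sites in Efcab12, Itsn1, Trmt10a, Ccdc12, Slc8a1, Capn2, Myo18a and Mid1, with HSC values from 2.13 to 5.94.

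The overlap shares of gene-body peaks were set against those of the other wild-type HSC classes in 10 Fisher's exact tests. For any other list the share was 13.5%, against 15.2% at gene ends (odds ratio 0.873, 0.611 to 1.23, exact test, adjusted p = 0.54) and 19.2% outside coding genes (0.658, 0.430 to 1.004, adjusted p = 0.092). For wild-type MEP it was 12.2%, against 13.8% (0.868, 0.597 to 1.24, exact test, adjusted p = 0.54) and 17.4% (0.661, 0.424 to 1.03, adjusted p = 0.092). For Mof-/+ HSC it was 3.71%, against 2.36% at gene ends (1.60, 0.765 to 3.19, exact test, adjusted p = 0.28) and 10.4% outside genes (0.334, 0.162 to 0.653, adjusted p = 0.0036).

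Gene-body peaks overlapped GATA1 intervals more often than gene-end peaks, at 2.12% against 0.262% (odds ratio 8.24, 1.96 to 48.5, exact test, adjusted p = 0.0036), and less often than peaks outside genes, at 2.12% against 7.01% (0.288, 0.110 to 0.679, adjusted p = 0.0041). The counts for Mof-/+ MEP were also 8 and 3 against gene-end peaks, with the same odds ratio and p, and against peaks outside genes the odds ratio was 1.40 (0.399 to 5.50, exact test, adjusted p = 0.59). All 8 GATA1 overlaps, and 7 of the 8 with Mof-/+ MEP, were at the sites in 3 or 4 other lists. Those sites are defined by the same overlaps that were tested, so leaving them out lowers the shares by construction and says nothing more about the classes. Without them neither gene-body nor gene-end peaks had a GATA1 overlap, and the differences in Mof-/+ MEP from gene-end peaks (exact test, adjusted p = 0.49) and in Mof-/+ HSC and GATA1 from peaks outside genes (adjusted p = 0.31 each) did not pass. For any other list the gene-body share was then 11.7%, a difference of −3.32 points from gene-end peaks and −2.31 from peaks outside genes, where it had been −5.68 from peaks outside genes. For wild-type MEP it was 10.3%, with differences of −3.27 and −2.04 points, where that from peaks outside genes had been −5.18.

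The gene with the most peaks was Tex14 (chromosome 11, 87405013 to 87555823), which held 7 of the 377. Tex14 is known for intercellular bridges of germ cells, and its span here carries 7 small RNA genes annotated as snRNA, of the U1 and U3 families where named. Every Tex14 summit lay within 250 bp of one of them, and 6 of the 7 snRNA genes had such a summit. The summits were 81 bp from an end of Rnu1a1 (value 10.7), 72 bp from Gm22068 (11.2), 99 bp from Rnu3b1 (7.49), 19 and 234 bp from Rnu3b3 (7.08 and 5.88), 40 bp from Rnu3b4 (9.49) and 40 bp from Rnu3b2 (5.56). Wild-type MEP held 6 summits in Tex14, next to the same 6 genes, and its values were 21.1, 19.5, 6.17, 16.9, 13.8 and 6.96. The U3 genes are near-identical copies, so reads may have been placed on the wrong copy, and the position of single summits there is uncertain.

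**Figure D5:**
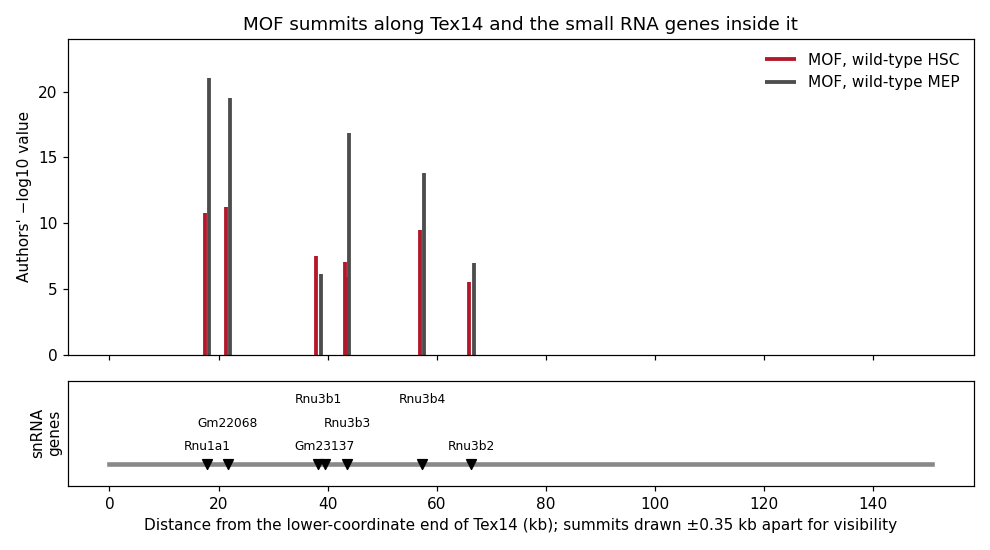
Upper panel, authors' −log10 value (y axis) of the MOF summits inside Tex14 by distance from the lower-coordinate end of the gene (x axis, kb), for wild-type HSC and wild-type MEP, whose values rest on separate calls. Lower panel, the Tex14 span (line) and the snRNA genes inside it (triangles). Every summit stands at one of these small RNA genes, and Gm23137 has none within 250 bp.

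Some gene-body peaks lay near a non-coding gene, the Tex14 sites and some of those at listed starts among them. Within 1 kb of an end of any non-coding gene lay 39 of the 377 gene-body peaks (10.3%, 7.66 to 13.8), where such positions made up 2.18% of gene-body sequence. Gene-end peaks were near one in 16.4% (14.4 to 18.7) and peaks outside coding genes in 22.6% (18.4 to 27.4). The nearest was a long non-coding RNA gene in 25, an snRNA gene in 7, a miRNA gene in 3 and a pseudogene in 2. In 1 it was Rn4.5s, annotated in the rRNA class, and in 1 another RNA gene. Among the highest were the sites in Srgn (64 bp from Gm51804), Por (20 bp from Gm40345), Cblc (chromosome 7, 19790147, 11.2; 14 bp from LOC115486450) and Stard13 (chromosome 5, 151368739, 9.08; 64 bp downstream of the start of 1700028E10Rik). Hk1, the hexokinase 1 gene (chromosome 10, 62340384, 8.37), had its summit 37 bp downstream of its own internal start and 150 bp from Hk1os. Pfdn4 (chromosome 2, 170511297, 8.80) and Nfkb2, a gene for an NF-kappa B subunit (chromosome 19, 46304458, 8.20), were 630 and 873 bp from a non-coding gene. The Numa1 site was 207 bp from a pseudogene.

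Genes of chromatin regulation held gene-body peaks in small numbers. All counts are of genes over 2 kb and are read against the 353 of 19190 such coding genes that held one (1.84%). Of 41 ATP-dependent remodelling genes, 6 did (14.6%). These were the SWI/SNF subunit genes Arid1a (chromosome 4, 133754311, 4.7) and Arid1b (chromosome 17, 5189900 and 5327951, 4.85 and 2.67), Baz2b (chromosome 2, 60124549, 4.68), Chd2 (3.82), Chd9 (chromosome 8, 90876511, 4.01) and Mta3 of the NuRD complex (chromosome 17, 83772952, 6.55). The median length of the 41 genes was 73471 bp, and 3.34% of all coding genes over 50 and up to 200 kb held a gene-body peak. With values of at least 5, which 203 of the 377 peaks had, 1 of the 6 was left. The part of gene length in the count was not tested. Of 80 genes of histone and DNA methylation and Polycomb, 3 held one, namely Jarid2, the Polycomb gene Phf19 (chromosome 2, 34905269, 9.83) and Phc2 (chromosome 4, 128711627, 5.84). A second Jarid2 summit, at 44733737 (6.89) and 2466 bp downstream of the listed start, was in no other list.

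Of 48 other genes of histone acetylation, 3 held a gene-body peak. Epc1 is described above. The summit of Kat5, the gene of the related acetyltransferase TIP60 (chromosome 19, 5610051, 2.93), was 43 bp downstream of an internal start, and that of the deacetylase gene Hdac9 (chromosome 12, 34812021, 5.38) was 105074 bp inside the gene from its listed start. Of the 12 genes of the MSL and NSL complexes only Kat8 held one. Of 51 genes of elongation and Mediator only Cdk8 did, and that site was in every list. Of 88 RNA processing genes 4 did. Srrm2, Srsf1 and Hnrnpf had theirs at internal starts, with both Hnrnpf summits (chromosome 6, 117906914 and 117917048, 8.75 and 4.58) at one, and U2af2 (chromosome 7, 5062576, 8.0) had no listed start.

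Stem and progenitor genes with a gene-body peak were 4 of 47. The peaks lay in Ikzf1, a lymphoid and stem cell factor (chromosome 11, 11742868, 5.12), Nfe2, a megakaryocyte and erythroid factor (chromosome 15, 103255337, 6.89), Runx1 (chromosome 16, 92822266, 3.61) and Mecom (5.94). The Runx1 summit was 3808 bp inside the gene from its outer start. None of the 4 was in another list, which was also so for 326 of all 377 gene-body peaks (86.5%). Erythroid genes were 2 of 34, Nfe2 and the survival gene Bcl2l1, and megakaryocyte genes 2 of 18, Nfe2 and Runx1. Of the markers of other cell types, 0 of 16 myeloid, 0 of 20 lymphoid, 0 of 7 mast cell and basophil and 0 of 12 stromal and endothelial genes held one. At 1.84% such short lists would hold few or none, and the myeloid and mast cell genes are short, with medians of 4319 and 3499 bp over each whole list. Repair and replication genes were 1 of 87 (Rad51b), and mitochondrial genes 2 of 53, Fars2 (chromosome 13, 36200649, 2.77) and Cox5a (chromosome 9, 57521158, 2.54). A peak list measures no expression, so these counts do not check the cell type label.

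In 24 genes there were at least 2 gene-body peaks, and in 22 of them exactly 2. Srgn held 3, at 62500323 (4.23), 62505339 (3.26) and, at an internal start, 62507740 (12.98). Bcl2l1, which encodes the anti-apoptotic BCL-XL (chromosome 2), had one 59 bp downstream of an internal start (152831669, 8.05) and a second 42560 bp away inside the gene (152789109, 5.29). Arrdc3 had a pair 417 bp apart (chromosome 13, 80885751 and 80886168, 5.58 and 9.93), and Rsad1 a pair 1221 bp apart. The pairs in Mef2c, a transcription factor gene (chromosome 13, 83532173 and 83655176, 3.87 and 4.39), and Angpt1, which encodes the TIE2 ligand angiopoietin 1 (chromosome 15, 42438276 and 42463495, 7.01 and 7.62), were 123003 and 25219 bp apart. In Pde4d, a phosphodiesterase gene (chromosome 13), the summits were 564086 bp apart (109343758 and 109907844, 1.80 and 3.84). The other genes with a pair were Cuedc1, Dennd4a, Diaph1, Dtnb, Gphn, Man1a, Maml3, Myo18a, Prkce, Por, Sgms1, Snx29 and Vps45, with Arid1b, Hnrnpf and Jarid2 above.

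Counted per gene, long genes held a gene-body peak more often. The share was 0.604% of coding genes over 2 and up to 10 kb, 1.56% up to 50 kb, 3.34% up to 200 kb and 4.95% above that. The host genes had a median length of 54062 bp, against 17329 bp for all coding genes. The rule leaves out 1 kb at each end, which takes a larger share of a short gene. A longer gene also holds more sequence, and peaks per Mb were not computed by gene length. By distance to the nearest coding gene end, 69 peaks lay at up to 2 kb, 78 at up to 5 kb, 109 at up to 20 kb, 103 at up to 100 kb and 18 beyond. The farthest were in Pde4d, Magi2 (chromosome 5, 20334608, 5.38) and Rad51b, at 612211, 370184 and 235441 bp. Chromosome 11 had the highest density, with 46 peaks or 0.871 per Mb of gene-body sequence against 0.382 over all chromosomes, and 7 of the 46 were in Tex14. The X chromosome had 1, in Mid1 (169979275, 2.13), or 0.0229 per Mb, among the 23 wild-type HSC peaks on X.

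Just inside the limit of 1 kb were Srsf1 at 1030 bp, Cfl1, the cofilin gene (chromosome 19, 5491512, 9.75), at 1057 bp and Zfp959 (chromosome 17, 55892149, 4.55) at 1065 bp. Just outside were Nfe2l2 (chromosome 2, 75703673, 5.54) at 990 bp, Ddx5 (chromosome 11, 106787661, 1.83) at 979 bp and Stard6 (chromosome 18, 70504305, 1.89) at 949 bp.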

How the data were processed

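MOF and GATA1 peaks were called by the authors. Per the submitters' processing notes, the tools were Bowtie2 2.3.0.1, MACS2 and deepTools and the build was mm10. Caller settings, read filters and the input used for each list were not given in the sources used here. The deposited wild-type lists give summits of 1 bp, each with a −log10 value that was read as a −log10 q-value from its minimum just above 1.3, since no header names it. The deposited Mof-/+ lists give intervals with fold enrichment, −log10 p, −log10 q and a whole-number score. The deposited GATA1 list gives the start and end of each interval as its only values. Read depth is unknown. The 6 inputs and the H4K16ac library were not analysed here.

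Gene spans, gene types and start windows came from RefSeq (GRCm38.p6). Start windows covered 32619 starts of coding and long non-coding genes; those on chromosome 18 were not used here, and 309 of the 377 peaks had a host with a listed start. Summits were extended by 150 bp per side, and an overlap of 1 bp counted as shared. Mof-/+ and GATA1 intervals were classed by their midpoint. Shares have 95% Wilson intervals, which cover counting error only. Classes were compared with two-sided Fisher's exact tests and Benjamini-Hochberg adjustment, over 10 planned tests of overlap and over 6 tests of starts added later. No exons or genome sequence were used, so exon shares were not computed, and GC content and motifs were measured in the start windows. Named peaks are the 15 highest in no other list and in another list, those of listed genes, genes with 2 or more, those near non-coding genes (12 highest), those in the Mof-/+ HSC list but not the GATA1 list, those in wild-type MEP alone, and those at the limits of value, distance and host length. The 6 printed windows were chosen after values were seen. The peaks, gene lists and tests were chosen with earlier results of these data known. Python 3.11.15, pandas 2.3.3 and scipy 1.17.1 were used, and the classing and overlap steps were tested on simulated positions.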

Additional observations from a re-analysis of the deposited data

How the results depend on the processing

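Of 181 alternative values of the main results, 144 were classed as the same as the main value. For tested differences this meant the same direction and the same call. Shares were the same when they stayed inside the interval of the main share, and GC content when it stayed inside the main quartiles. Counts, which have no interval, were the same when their size changed little. No paired analysis was possible because each list comes from 1 library, and for the same reason no library could be left out. The number of gene-body peaks was 230 at 5 kb from gene ends and 203 with values of at least 5, at which 16 genes of the lists held one in place of 26. With summits extended by 50 bp, 10.3% of gene-body peaks were in any other list and 9.02% in wild-type MEP. The differences from gene-end peaks then turned to 0.738 and 1.07 percentage points, and those from peaks outside genes were −6.42 and −5.62 and passed the test. With an overlap of 150 bp the differences from peaks outside genes were −6.01 and −5.81 and passed as well. Among values of at least 5 the shares were 18.2% and 16.7%. The MEP difference from gene-end peaks turned to 0.462 points. The differences from peaks outside genes no longer passed the test for Mof-/+ HSC and GATA1. They were −7.46 and −4.78 points, where the main values were −6.65 and −4.89.

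Without the peaks in 3 or 4 other lists, 2.17% of gene-body peaks were in Mof-/+ HSC, 0.271% in Mof-/+ MEP and 0% in the GATA1 list. The difference from gene-end peaks turned to −0.0211 points for Mof-/+ HSC and no longer passed for Mof-/+ MEP at 0.271, and no value could be had for GATA1. The differences from peaks outside genes no longer passed, at −2.38 points for Mof-/+ HSC and −0.974 for GATA1. The share near a non-coding gene end was 7.16% within 500 bp. In a narrower window around the summit the motif shares were 6.25% (GATA), 3.13% (RUNX), 31.2% (E-box), 46.9% (GC box), 12.5% (CCAAT) and 0% (TATA), over the 32 summits with enough window on both sides in place of 64 windows, so that both the bases searched and the sites changed.

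In alternatives chosen after seeing the data, the share at a listed start was 18.9% within 100 bp and 23.3% at 2 kb from gene ends. The start shares kept their differences from all 4 other lists at 100 and 500 bp, at 2 kb from gene ends and without peaks in 3 or 4 other lists. The wild-type MEP difference between gene-body peaks at and away from a start turned to 0.881, 0.883 and 2.70 points at 100 bp, at 500 bp and without those peaks, and the Mof-/+ HSC difference lost its call at −4.73 points at 100 bp and −3.19 points without those peaks. Where no construction is named, the cause was not tested. Unknown depth limits every statement that a site was not called.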
